A study of Mus musculus with 11 samples.

Results

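Lmx1a and Lmx1b encode a pair of LIM-homeodomain transcription factors, and their loci were mapped in ATAC-seq peak lists of dopaminergic (DA) and serotonergic (5-HT) neurons of the mouse embryo. A locus was the gene body with 100 kb on each side in the mm9 genome. Every deposited region that overlapped a locus by at least 1 bp was taken, which gave 53 regions for Lmx1a and 43 for Lmx1b, or 96 of the 131942 regions of the series. Proteins of this family join LIM domains, which bind cofactors such as Ldb1, to a homeodomain that binds DNA. In the floor plate of the midbrain, both factors take part in the specification of DA progenitors. Lmx1b is also needed in the hindbrain, where 5-HT neurons depend on it to differentiate and to maintain their transmitter identity.

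DA neurons were GFP+ cells sorted from the ventral mesencephalon of TH-GFP embryos, whose GFP is driven by the promoter of Th, the gene of tyrosine hydroxylase (3 libraries). 5-HT neurons were YFP+ cells sorted from rhombomeres 1 to 3 of embryos that carry a Cre transgene and the ROSA YFP reporter (2 libraries). All embryos were at E14.5 and came from transgenic males crossed with wild-type Swiss females, the TH-GFP line being kept on C57BL/6J, and each library was a separate sort of pooled embryos. This Cre can also label cells other than 5-HT neurons, and fewer cells were sorted for the 5-HT libraries. In such bulk samples, fewer cells with an accessible region and less accessibility per cell cannot be told apart.

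For each library, a region carries a score, which is 0 where no peak was called. DA library 1 had 52861 peaks, DA library 2 had 93055 and DA library 3 had 94351, while 5-HT library 1 had 38772 and 5-HT library 2 had 22879. How deeply each library was sequenced is not known. Since the scale of the score is not known either, a score is also given as its percentile, the percentage of peaks of the same library that score as high or lower. A region is named DA-only where the 3 DA libraries have a peak and the 5-HT libraries have none.

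The sorted populations were first compared with promoters of marker genes (1 kb upstream to 100 bp downstream of a transcription start site, TSS). All 8 DA markers (Th, Slc6a3, Slc18a2, Ddc, Nr4a2, Pitx3, En1 and Foxa2) had a promoter peak in the 3 DA libraries, and Th was DA-only, beside 58.9% and 1.98% of protein-coding genes. Of the 7 5-HT markers, Tph2, Gata3 and Ddc had a peak in all 5 libraries (48.4% of protein-coding genes), and Slc18a2 in 5-HT library 2 and the 3 DA libraries. Fev, a transcription factor of postmitotic 5-HT neurons, had a peak in 5-HT library 1 alone, and Gata2 in 5-HT library 1 and DA library 2. The promoter of Slc6a4, the serotonin transporter gene, had no peak in either 5-HT library and a peak in the 3 DA libraries. Among the 3 GABAergic markers, Gad1 and Gad2 had a peak in all 5 libraries and Slc32a1 in all but 5-HT library 2. Slc17a6, a glutamatergic marker, was called in every DA library and in 5-HT library 1, whereas Slc17a8 lacked one in DA library 1 and 5-HT library 2, and Slc17a7 lacked one throughout. The noradrenergic marker Dbh had none, and Phox2a had a peak in DA library 3 alone. Of the 6 markers of glia, vessels and microglia, Pdgfra had a peak in all 5 libraries, Gfap and Cldn5 in the 3 DA libraries and 5-HT library 1, Aqp4 in DA libraries 2 and 3, and Pecam1 and Aif1 in none. The part of other cell types in the results below was not tested.

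The body of Lmx1a had few peaks in 5-HT neurons. Of the 33 regions in its promoter, exons and introns, 1 had a peak in 5-HT library 1 (3.03%, beside 29.4% of all regions of the series) and 2 in 5-HT library 2 (6.06%, beside 17.3%). All 33 had a peak in DA library 2 (70.5% in the series), but 11 in DA library 1 (33.3%, beside 40.1%) and 12 in DA library 3 (36.4%, beside 71.5%), so that these DA libraries were also below their shares in the series, and 20 of the 33 came from DA library 2 alone. In the flanks the libraries were closer to each other, since 8 of 20 regions had a peak in 5-HT library 1 and 5 in 5-HT library 2, against 11 in DA library 1, 20 in DA library 2 and 12 in DA library 3.

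Over the whole Lmx1a locus, 11 of 53 regions were DA-only (20.8%), and 13.4% of all regions of the series were. With regard to the regions shared by the 3 DA libraries, 11 of 21 were DA-only at the Lmx1a locus (52.4%), beside 38.6% in the series. By class, 8 of 10 such regions in the promoter, exons and introns were DA-only, and 3 of 11 in the flanks. Whether the classes differ was not tested. The 38.6% is over regions of all classes, and a share of the series for gene bodies, introns or flanks alone was not computed. With the 22879 highest-scoring peaks of each library, 1 of the 2 DA-only regions left at this locus lay in the gene body. With all peaks, the Lmx1b locus showed fewer DA-only regions. There, 3 of 43 regions were DA-only (6.98%), or 3 of the 15 shared by the 3 DA libraries (20.0%), with 1 of 7 in the gene body and 2 of 8 in the flanks.

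These numbers depended on how many peaks were called in each library. When each library was limited to its 22879 peaks of highest score, 2 of 9 regions shared by the 3 DA libraries were DA-only at the Lmx1a locus (22.2%) and 2 of 6 at the Lmx1b locus (33.3%), beside 16.9% in the series. Without 5-HT library 1, the Lmx1b locus had 11 DA-only regions, and it had 5 without DA library 1 and 5 without DA library 3. With any single library left out, the Lmx1a locus had 11 to 14. Leaving out a library removes a condition of the DA-only rule, so these counts could stay or rise but not fall. The share of the series was not computed with a library left out.

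**Figure D1:**
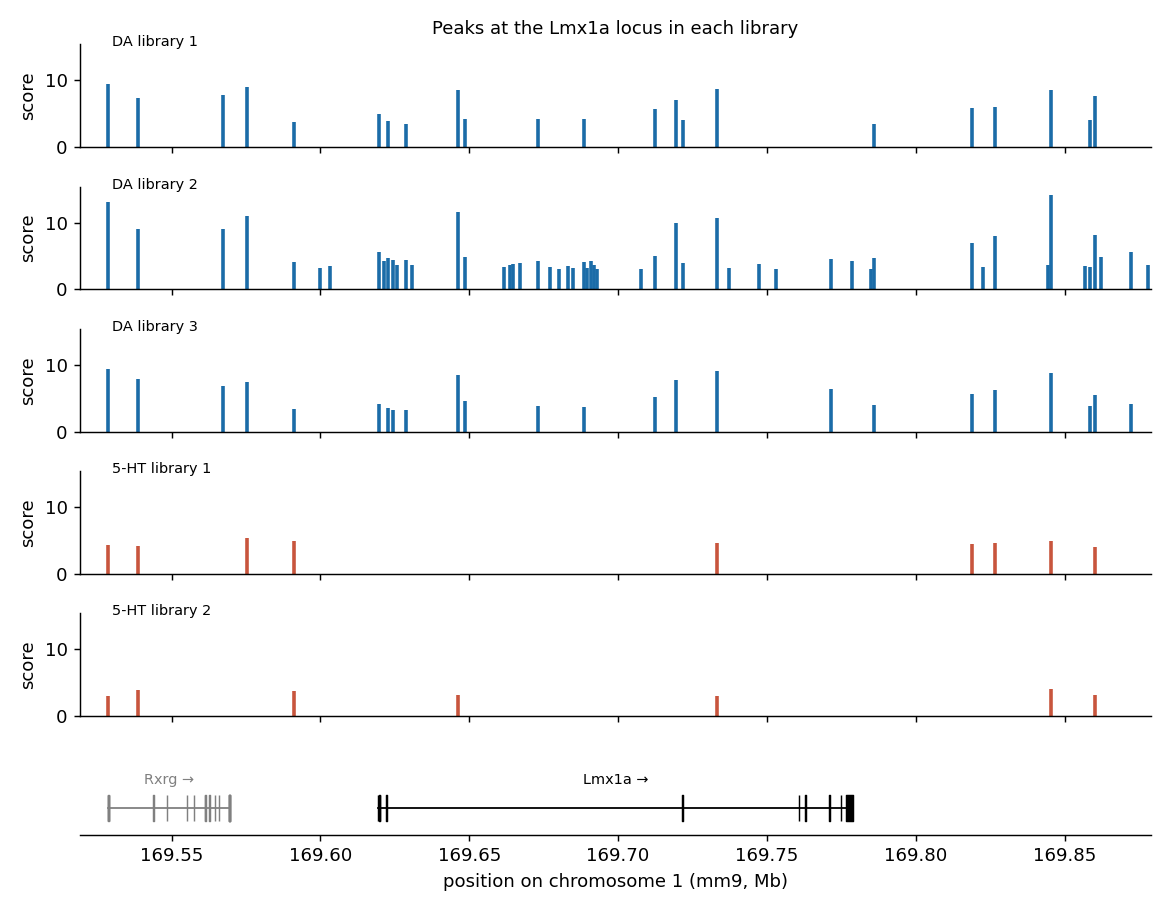
Peaks at the Lmx1a locus in each of the 5 libraries, drawn at the centre of each region. The vertical axis is the deposited score and the horizontal axis the position on chromosome 1 (mm9), with the exons of Lmx1a in black and those of its neighbour in grey. Within Lmx1a, 11 regions have a peak in DA library 1, 33 in DA library 2, 12 in DA library 3, 1 in 5-HT library 1 and 2 in 5-HT library 2.

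The promoter of Lmx1a (ENSMUSG00000026686.8; gene at chr1:169619370-169778872, plus strand) lay in a single region of 2181 bp, chr1:169618447-169620627, which spans both annotated TSSs. Its score was 5.62 in DA library 2 (percentile 66.4) and 4.09 in DA library 3 (percentile 51.8), with a percentile of 47.8 in DA library 1, and it was 0 in both 5-HT libraries. The promoter was thus DA-only, a pattern found for 1.98% of the 22380 protein-coding genes. It was a middling peak in each DA library, and none of them had it among its 22879 highest-scoring peaks.

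The promoter of Lmx1b (ENSMUSG00000038765.5; gene at chr2:33416485-33496031, minus strand) was accessible in both cell types, though not in every library. The region chr2:33494705-33498900 is 4196 bp wide and also covers the promoter of C130021I20Rik, a long non-coding RNA gene that starts nearby on the other strand. Its score was 6.00 in DA library 1, 7.62 in DA library 2, 6.01 in DA library 3 and 4.44 in 5-HT library 1, at percentiles of 63.0, 81.0, 76.1 and 49.0, and it was 0 in 5-HT library 2. This pattern was found for 7.93% of protein-coding genes, and a promoter peak in all 5 libraries for 48.4%. A second annotated TSS within the gene was covered by chr2:33486548-33488033, where DA library 2 alone had a peak (score 3.78, percentile 33.9).

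The start of Lmx1a was covered by a run of wide regions. Its first 10 kb held 6 regions, of which 3 were DA-only and none had a peak in a 5-HT library. DA library 1 had a peak in 3 of them, DA library 2 in all 6 and DA library 3 in 4. Together they covered 6916 bp, and among protein-coding genes 16 had more of their first 10 kb covered, the median being 578 bp. Its DA-only regions covered 4176 bp, with 4 genes above. The first 10 kb of Lmx1b held 5 regions that covered 3597 bp, with 207 genes above, and none was DA-only. DA library 2 had a peak in all 5, and DA library 1, DA library 3 and 5-HT library 1 in 1 each. Without the regions of DA library 2 alone, 4747 bp were covered for Lmx1a, with 54 genes above, and 1327 bp for Lmx1b, with 3691 above, the median being 550 bp. At 22879 peaks per library, no region of the first 10 kb of Lmx1a kept a peak in any library, so that the run consisted of peaks of lower score. These measures were chosen after the values had been seen.

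To show what these promoter regions hold, their sequences are given, as the 250 bases before the RefSeq start of each gene (both members found in the RefSeq table of GRCm38.p6). Each run matched mm9 once, and its mm9 position is given. The RefSeq start of Lmx1a coincides with its second annotated TSS. That of Lmx1b lies 587 bp upstream of the GENCODE TSS, inside the promoter region, and the first bases of its run overlap an exon of C130021I20Rik. The words searched on both strands were TAATTA (homeodomain core), GTAAACA (forkhead), TAATCC (OTX and PITX), CAGCTG and CAGATG (basic helix-loop-helix factors) and AAGGTCA (NR4A half-site), none of which contains another. Neither run holds any of them. Among 32544 RefSeq promoters of this length, 4.84% hold TAATTA, 3.17% GTAAACA, 6.25% TAATCC, 13.1% CAGCTG, 14.4% CAGATG and 4.09% AAGGTCA.
Lmx1a promoter, chr1:169619439-169619688, plus strand: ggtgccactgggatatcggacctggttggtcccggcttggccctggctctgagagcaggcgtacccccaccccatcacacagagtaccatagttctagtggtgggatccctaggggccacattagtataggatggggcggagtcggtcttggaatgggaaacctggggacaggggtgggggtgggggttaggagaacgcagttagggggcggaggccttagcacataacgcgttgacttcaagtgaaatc
Lmx1b promoter, chr2:33496619-33496868, minus strand: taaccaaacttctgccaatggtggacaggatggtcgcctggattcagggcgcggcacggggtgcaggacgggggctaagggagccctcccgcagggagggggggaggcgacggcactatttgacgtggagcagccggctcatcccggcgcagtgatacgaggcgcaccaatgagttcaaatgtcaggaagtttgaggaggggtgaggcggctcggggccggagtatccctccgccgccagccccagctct

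Within the introns of Lmx1a, 8 of 29 regions were shared by the 3 DA libraries, and 6 of these were DA-only. How often this holds in introns of other genes was not computed. The intronic region chr1:169718740-169720226, 100.1 kb downstream of the TSS, scored 7.08 in DA library 1, 9.97 in DA library 2 and 7.79 in DA library 3 (percentiles of 74.5, 90.1 and 86.7) and had no peak in 5-HT neurons. It was the DA-only region of the gene body that remained DA-only at 22879 peaks per library. The other 5 intronic DA-only regions were weaker, with lowest DA percentiles between 4.71 and 58.6.

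The highest scores within Lmx1a belonged to regions that 5-HT neurons shared. The region chr1:169732025-169734610, 113.9 kb from the TSS, had a peak in all 5 libraries, with percentiles of 85.6, 91.8 and 91.2 in DA libraries 1, 2 and 3, and of 55.3 and 17.1 in 5-HT libraries 1 and 2. The region chr1:169645797-169646816, 26.9 kb from the TSS, had percentiles of 84.9, 93.6 and 89.5 in the DA libraries and of 24.8 in 5-HT library 2, without a peak in 5-HT library 1. Among the 3 exonic regions, chr1:169622007-169623515 was DA-only (percentiles of 22.4, 54.9 and 38.9), a second had peaks in DA libraries 1 and 2 and the last in DA library 2.

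Regions with a peak in all 5 libraries made up 6 of 53 at the Lmx1a locus and 4 of 43 at the Lmx1b locus, beside 12.8% in the series, and 5 of the 6 lay in the flanks of Lmx1a. A pair of them belonged to Rxrg, the gene of a retinoid X receptor that lies upstream. Its promoter (chr1:169528338-169529062) had percentiles of 89.1, 95.6 and 92.0 in the DA libraries and of 44.7 and 13.6 in the 5-HT libraries, and an Rxrg intron (chr1:169538202-169539007) had 76.5, 87.3 and 86.9, against 41.8 and 56.5. Downstream of Lmx1a, chr1:169845063-169845819 had percentiles of 84.7, 96.7 and 90.4 in the DA libraries and of 62.5 and 63.4 in the 5-HT libraries. Further out, chr1:169859905-169860459 had 79.6, 83.6 and 71.4, against 35.5 and 28.0. In each of these 4 regions every DA percentile was above both 5-HT percentiles, but a percentile depends on how many peaks its library has. By rank, counted from the highest score of a library, every DA library was above both 5-HT libraries in the Rxrg promoter only.

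Between Rxrg and Lmx1a, 28.2 kb upstream of the TSS of Lmx1a, the order was the opposite. The region chr1:169590784-169591617 had percentiles of 14.1, 42.7 and 27.3 in DA libraries 1, 2 and 3, and of 61.2 and 54.6 in 5-HT libraries 1 and 2. Both 5-HT libraries were thus above every DA library, and they were so by rank as well. Of all regions with a peak in the 5 libraries, 1.58% showed this order by percentile and 30.0% by rank, and the reverse order, with each DA library above both 5-HT libraries, was found in 51.2% by percentile and 11.4% by rank. Over the 10 such regions of both loci, the DA libraries were higher in 8 and the 5-HT libraries in 1 by percentile, but in 3 and 2 by rank. The comparison by rank was chosen after the values had been seen. At 22879 peaks per library both 5-HT libraries kept this peak and no DA library did, which held for 15.2% of the regions shared by the 5-HT libraries. The region was singled out after its values had been seen.

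The remaining flanking regions shared by the 3 DA libraries included chr1:169575014-169575488, 44.1 kb upstream of Lmx1a, with percentiles of 87.1, 92.6 and 84.9 in the DA libraries and of 68.6 in 5-HT library 1. The highest DA-only percentiles of the flanks were those of a region in an Rxrg intron (chr1:169567115-169567438), with 79.9, 87.0 and 81.7, which also remained DA-only at 22879 peaks per library. The other DA-only flanking regions, both downstream of Lmx1a, had lowest DA percentiles of 4.71 and 14.6.

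Many regions of the Lmx1a locus came from DA library 2 alone. They numbered 28 of 53, among them 19 of the 29 intronic regions, with a median percentile of 22.5 in that library and a highest one of 57.7. At the Lmx1b locus they numbered 18 of 43, with a median percentile of 26.1. In the series, 17.4% of regions had a peak in DA library 2 alone. Since such regions have no peak in the other DA libraries, none of them is DA-only or shared by the 3 DA libraries. They do count among the 53 and 43 regions of the loci, and so lower the DA-only shares of 20.8% and 6.98%. They also raise the share of peaks of this library that lie at the loci.

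**Figure D2:**
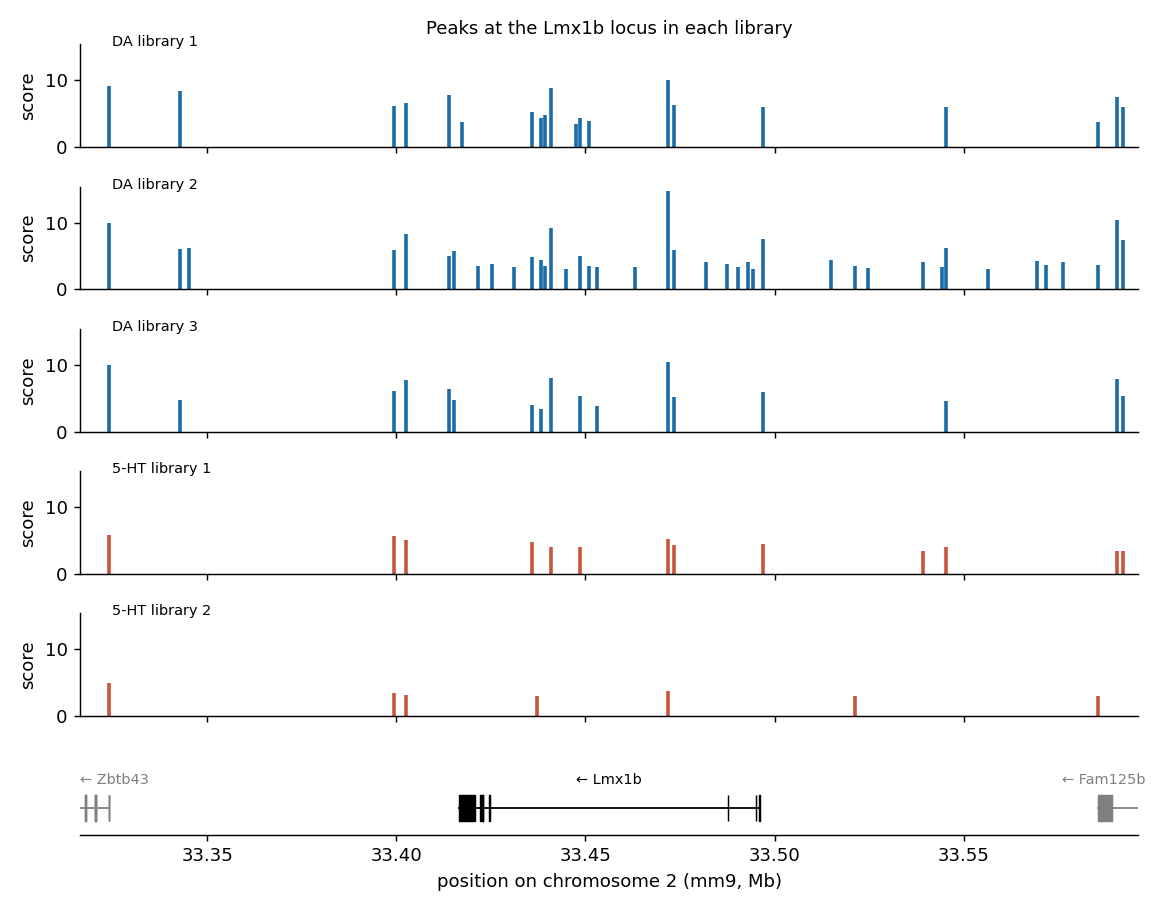
Peaks at the Lmx1b locus in each of the 5 libraries, drawn at the centre of each region. The vertical axis is the deposited score and the horizontal axis the position on chromosome 2 (mm9), with the exons of Lmx1b in black and those of its neighbours in grey. Within Lmx1b, 11 regions have a peak in DA library 1, 20 in DA library 2, 8 in DA library 3, 6 in 5-HT library 1 and 2 in 5-HT library 2.

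At the Lmx1b locus, most regions shared by the 3 DA libraries were also found in 5-HT library 1. Of these 15 regions, 4 were shared by both 5-HT libraries, beside 36.9% of such regions in the series, and another 8 had a peak in 5-HT library 1 alone of the 5-HT libraries, beside 21.6%. The gene body had 11 peaks in DA library 1, 20 in DA library 2, 8 in DA library 3, 6 in 5-HT library 1 and 2 in 5-HT library 2. No region had a peak in both 5-HT libraries without one in DA neurons, and an intronic region (chr2:33436962-33437343) had a peak in 5-HT library 2 alone, at a percentile of 14.7 (named after its values had been seen).

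The highest-scoring region of the Lmx1b gene body lay in an intron, 24.3 kb downstream of the GENCODE TSS. This region, chr2:33470685-33472786, had scores of 10.0, 14.7 and 10.5 in the DA libraries and of 5.17 and 3.73 in 5-HT libraries 1 and 2. Its percentiles were 90.8, 97.1 and 94.3 in DA neurons, above those of 65.8 and 51.5 in 5-HT neurons. In the DA libraries, next came the intronic region chr2:33440127-33441579, with percentiles of 86.2, 87.5 and 87.5 in the DA libraries and of 35.4 in 5-HT library 1, and none in 5-HT library 2. This region became DA-only at 22879 peaks per library. The intronic region chr2:33473113-33473655 had percentiles of 66.0, 69.2 and 68.2, with 47.0 in 5-HT library 1. The single exonic region of Lmx1b had a peak in DA library 1 alone.

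Downstream of Lmx1b, 3 regions had a peak in all 5 libraries, on the side of Zbtb43, a zinc finger gene. Its promoter, chr2:33323662-33324476, had percentiles of 87.4, 90.2 and 93.2 in the DA libraries and of 75.6 and 79.9 in the 5-HT libraries. The region chr2:33402340-33402970 had 69.4, 84.5 and 86.3, against 65.5 and 21.8. In chr2:33398374-33400416 the groups overlapped by percentile, since 5-HT library 1 (72.7) lay between DA library 2 (69.5) and DA library 3 (76.3). DA library 1 had 65.4 there and 5-HT library 2 had 38.0. By rank, however, both 5-HT libraries (10591 and 14184) were above every DA library (18310, 28361 and 22390) in this region.

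Of the 3 DA-only regions of the Lmx1b locus, those in the flank scored higher than the intronic one in every DA library. The region chr2:33413843-33414247, just past the end of the gene, had percentiles of 79.8, 59.5 and 78.7, and chr2:33342441-33343137 had 84.0, 70.4 and 62.2. The intronic one, chr2:33437830-33438566, had 34.0, 48.5 and 26.8. On the upstream side, no region was DA-only. There, an intron of Fam125b, the gene of an ESCRT-I subunit (chr2:33590117-33590747), had percentiles of 78.0, 91.1 and 87.1 in DA neurons and of 10.98 in 5-HT library 1, and it was DA-only at 22879 peaks per library.

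To compare the loci over libraries with unequal numbers of peaks, the peaks at a locus were counted per 10000 peaks of the library. Lmx1a had 5.70 in DA library 2, 4.16 in DA library 1, 3.06 in 5-HT library 2, 2.54 in DA library 3 and 2.32 in 5-HT library 1, in this order. DA library 3 lay between the 5-HT libraries, so the groups overlapped with all peaks. The means were 4.13 ± 1.58 (SD, n = 3) in DA neurons and 2.69 ± 0.522 (SD, n = 2) in 5-HT neurons, and the difference of 1.44 did not pass the two-sided exact permutation test (p = 0.3, adjusted p = 0.45 over 3 tests). With 3 libraries against 2, the smallest p this test allows is 0.1. The difference was 0.662 without DA library 2 and 2.24 without DA library 3. With 22879 peaks per library the groups did not overlap, with 12, 11 and 10 peaks at the locus in DA libraries 1, 2 and 3 and 8 and 7 in 5-HT libraries 1 and 2 (difference 1.53 per 10000, exact permutation p = 0.1).

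Lmx1b had 4.30 peaks per 10000 in DA library 2, 3.78 in DA library 1, 3.35 in 5-HT library 1, 3.06 in 5-HT library 2 and 1.8 in DA library 3. Both 5-HT libraries lay within the range of the DA libraries. The means were 3.29 ± 1.32 (SD, n = 3) in DA neurons and 3.21 ± 0.207 (SD, n = 2) in 5-HT neurons (difference 0.0884, exact permutation p = 1, adjusted p = 1). The sign of this difference turned without DA library 1, without DA library 2 or without 5-HT library 2, with values down to -0.414. It was larger in other settings, at 0.874 with 22879 peaks per library, 1.61 with the upper 50% of the peaks of each library, 0.482 with no flank and 0.411 without regions of other protein-coding genes, and 0.835 without DA library 3.

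**Figure D3:**
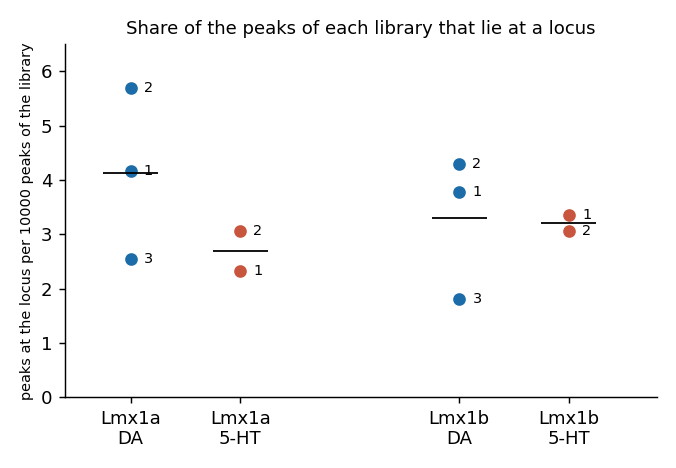
Peaks at the Lmx1a and Lmx1b loci per 10000 peaks of each library (vertical axis), by cell type (horizontal axis). Points are libraries, with their number beside them, and lines are group means. For Lmx1a, DA library 3 (2.54) lies between the 5-HT libraries (2.32 and 3.06), and for Lmx1b both 5-HT libraries lie within the range of the DA libraries (1.8 to 4.30).

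The loci were also compared with each other within each library. Lmx1a and Lmx1b had 22 and 20 peaks in DA library 1, 53 and 40 in DA library 2 and 24 and 17 in DA library 3, but 9 and 13 in 5-HT library 1 and 7 and 7 in 5-HT library 2. The log2 ratio of Lmx1a to Lmx1b, with 0.5 added to both numbers, was 0.13, 0.40 and 0.49 in the DA libraries and -0.51 and 0 in the 5-HT libraries. With all peaks and flanks of 100 kb, each DA library was above both 5-HT libraries. The mean ratios differed by 0.59 on the log2 scale (0.34 ± 0.18, SD, n = 3, against -0.25 ± 0.36, SD, n = 2), with an exact permutation p of 0.1, the smallest the design allows, and an adjusted p of 0.3. With 22879 peaks per library the groups overlapped, since DA library 1 had 12 and 12 peaks and 5-HT library 1 had 8 and 7 (difference 0.22, exact permutation p = 0.5). The direction turned when the upper 50% of the peaks of each library were kept (-0.14, exact permutation p = 0.6). The difference was 1.11 with flanks of 50 kb (exact permutation p = 0.1) and 1.48 with no flank (exact permutation p = 0.2).

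The density of regions at both loci depended on DA library 2. The Lmx1a locus held 14.7 regions per 100 kb and the Lmx1b locus 15.4, where the median of the loci of the 22380 protein-coding genes was 5.80. Among these genes, 382 had a denser locus than Lmx1a and 300 a denser one than Lmx1b. Without the regions of DA library 2 alone, the densities were 6.95 and 8.94 against a median of 4.73, with 4893 and 2043 genes above. In DA-only regions of the gene body, Lmx1a had 8, with 87 genes above, and Lmx1b had 1, with 1759 genes above. The median was 3 among the 1301 genes at least as long as Lmx1a, of which 122 had 8 or more, and it was 1 among the 3089 genes at least as long as Lmx1b. At 22879 peaks per library, each gene body had 1 DA-only region. The regions of Lmx1a and Lmx1b were 507 and 539 bp wide in the median, against 340 bp in the series. These measures were chosen after the values had been seen.

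The same words were searched in the central 200 bp of the regions. TAATTA, the core that LIM-homeodomain and other homeodomain proteins bind, was found in 3 of 53 regions at the Lmx1a locus and 3 of 43 at the Lmx1b locus, and in 6.37% of all regions. Of these, 3 at the Lmx1a locus and 1 at the Lmx1b locus were among the 21 and 15 regions shared by the 3 DA libraries, beside 5.73% of such regions in the series. TAATCC was found in 6 regions of the Lmx1a locus and 2 of the Lmx1b locus (7.11% of all regions), and CAGATG in 11 and 7 (19.5%). CAGCTG was found in 9 and in 13 (18.9%), AAGGTCA in 2 and 1 (4.15%), and GTAAACA in none (3.82%). Over the series, each of the 6 words was more frequent in DA-only regions than in regions with a peak in all 5 libraries, for example TAATTA (8.80% against 2.57%), GTAAACA (5.43% against 1.78%) and CAGATG (22.9% against 10.6%), and the median GC content of these sets was 48.0% and 60.5%. The median GC content of these central bases was 50% at the Lmx1a locus, 56.0% at the Lmx1b locus and 49.0% in the series. A match is a description of the sequence and not a binding site.

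The central 200 bases of 6 regions are shown on the strand of their gene, with any of these words in capitals. The first 3 lie in introns of Lmx1a: the strongest DA-only region of the gene body, the region with a peak in all 5 libraries, and the strong region shared with 5-HT library 2 alone. The next is the upstream region with higher percentiles in 5-HT neurons. The last lie in introns of Lmx1b, the region of its locus with the highest scores in the DA libraries and the region that was DA-only at 22879 peaks per library. TAATTA and TAATCC occur together in the Lmx1a region called in all 5 libraries and in the last of these Lmx1b regions.
Lmx1a intron, DA-only, chr1:169719384-169719583, plus strand: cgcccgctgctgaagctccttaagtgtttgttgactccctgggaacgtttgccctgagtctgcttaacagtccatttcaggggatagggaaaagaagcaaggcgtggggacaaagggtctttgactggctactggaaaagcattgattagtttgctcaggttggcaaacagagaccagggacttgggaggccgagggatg
Lmx1a intron, all 5 libraries, chr1:169733218-169733417, plus strand: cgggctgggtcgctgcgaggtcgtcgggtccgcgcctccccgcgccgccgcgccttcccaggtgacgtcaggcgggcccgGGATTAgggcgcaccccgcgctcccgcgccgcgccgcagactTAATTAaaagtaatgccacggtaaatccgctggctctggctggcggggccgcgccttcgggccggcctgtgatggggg
Lmx1a intron, DA and 5-HT library 2, chr1:169646207-169646406, plus strand: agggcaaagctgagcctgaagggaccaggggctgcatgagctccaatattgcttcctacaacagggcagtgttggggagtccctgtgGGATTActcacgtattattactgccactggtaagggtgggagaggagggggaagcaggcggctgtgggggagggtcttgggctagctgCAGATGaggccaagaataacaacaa
Upstream of Lmx1a, higher in 5-HT, chr1:169591101-169591300, plus strand: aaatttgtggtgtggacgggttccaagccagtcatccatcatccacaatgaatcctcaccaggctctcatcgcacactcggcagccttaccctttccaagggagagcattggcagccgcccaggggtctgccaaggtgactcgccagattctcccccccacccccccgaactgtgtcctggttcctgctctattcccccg
Lmx1b intron, all 5 libraries, chr2:33471636-33471835, minus strand: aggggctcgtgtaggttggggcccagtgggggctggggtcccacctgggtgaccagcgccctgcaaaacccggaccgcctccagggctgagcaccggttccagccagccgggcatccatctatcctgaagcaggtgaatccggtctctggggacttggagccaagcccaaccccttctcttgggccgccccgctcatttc
Lmx1b intron, DA and 5-HT library 1, chr2:33440754-33440953, minus strand: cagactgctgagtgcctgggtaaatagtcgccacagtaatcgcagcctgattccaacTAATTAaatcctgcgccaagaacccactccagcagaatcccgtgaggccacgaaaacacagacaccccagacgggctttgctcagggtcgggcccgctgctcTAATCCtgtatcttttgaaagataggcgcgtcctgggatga

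Among the other LIM-homeodomain genes, none of 10 had a DA-only promoter, beside 1.98% of protein-coding genes. Lhx1, Lhx2, Lhx8, Isl1 and Isl2 had a promoter peak in all 5 libraries, and Lhx4, Lhx6 and Lhx9 in the 3 DA libraries and 5-HT library 1, as Lmx1b did. Lhx5 had a peak in 5-HT library 1 alone and Lhx3 in none. The promoter region of Isl1, a gene of motor and sensory neurons, had percentiles of 37.2, 67.7 and 67.7 in the DA libraries and of 70.7 and 8.49 in the 5-HT libraries. Where a listed gene had more than 1 promoter region, its percentiles here and below are those of 1 of them. The LIM cofactors had a promoter peak in the 3 DA libraries in 9 of 9 genes, 7 of them in all 5 libraries, beside 58.9% and 48.4% of protein-coding genes. Ssbp2, whose protein stabilises Ldb1 complexes, had percentiles of 97.8, 98.0 and 97.7 in the DA libraries and of 94.1 and 93.2 in the 5-HT libraries. For Ldb1, the adaptor of LIM-homeodomain proteins, these were 81.4, 89.4 and 83.8, and 75.9 and 84.0, so that the groups overlapped. Ldb2 and Lmo3 lacked a peak in 5-HT library 2.

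Of 19 genes of the midbrain DA programme, 17 had a promoter peak in the 3 DA libraries and 2, Th and Aldh1a1, were DA-only, beside 58.9% and 1.98% of protein-coding genes. Th had percentiles of 90.5, 91.7 and 89.3 in the DA libraries, and Aldh1a1, a retinaldehyde dehydrogenase gene of a subset of DA neurons, had 32.9, 57.1 and 75.1. In 10 genes all 5 libraries had a peak, a share near the 48.4% of protein-coding genes, among them Shh and Foxa2, which act in the floor plate together with Lmx1a, and the terminal regulators Nr4a2 and Pitx3. Pitx3 had percentiles of 93.5, 94.1 and 91.7 in DA neurons and of 61.9 and 8.35 in 5-HT neurons. The promoter of Msx1, a target of Lmx1a in DA progenitors, had 39.2, 52.8 and 64.9, against 15.3 and 69.0, and overlapped between the groups. Otx2, Wnt5a and Corin had a peak in 5-HT library 1 besides the DA libraries, and Wnt1 and Msx2 had none.

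Of 11 genes of the 5-HT programme, in which Lmx1b acts, 9 had a promoter peak in the 3 DA libraries, beside 58.9% of protein-coding genes. Foxa2, Gata3, Insm1, Tph2 and Ddc had a peak in all 5 libraries, a share near the 48.4% of protein-coding genes, and Nkx2-2 and Slc18a2 in the 3 DA libraries and a single 5-HT library. Slc6a4 and Maob were DA-only (1.98% of protein-coding genes), and Fev and Gata2 lacked a peak in at least 2 DA libraries. Gata3 had percentiles of 73.6, 51.5 and 61.7 in the DA libraries and of 65.1 and 95.5 in the 5-HT libraries. Tph2, which makes the rate-limiting enzyme of serotonin synthesis in the brain, had 90.5, 80.9 and 95.2, against 87.5 and 46.0. These values are of 1 of 4 promoter regions of Gata3 and 1 of 2 of Tph2, and neither region separated the groups.

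Over the 14559 protein-coding genes with a promoter region, the promoter percentiles nearest to those of Lmx1a over the 5 libraries were those of 2810417H13Rik (Euclidean distance 5.28), Tmem89 (5.79) and Gal3st3 (6.04), all of them DA-only. For Lmx1b they were those of 1190007I07Rik (4.52), Arhgef11 (4.57) and RP23-191I16.2 (5.01), all without a peak in 5-HT library 2.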

How the data were processed

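According to the submitters' processing notes and the methods of the study, the authors used Trimmomatic for trimming, Bowtie2 for alignment to mm9, Picard against duplicate reads and MACS2 for peak calling, joined peaks under 100 bp apart and annotated them with HOMER; versions and the calling threshold are not stated in the sources used here. The authors deposited a score for the same 131942 regions in each library, and the columns for signal and significance hold -1. Of the lines, 1 with a misspelled chromosome name was corrected. Regions were classed as promoter, exon, intron or flank, in this order, with GENCODE (mouse version 1, mm9), using Python 3.11.15, NumPy 2.4.6 and pandas 2.3.3. Values per library were compared by two-sided exact permutation tests with Benjamini-Hochberg adjustment over 3 tests. Named regions were those of the promoters, the 3 of each class and locus with the highest lowest-DA percentile, and those with a peak in all 5 libraries; DA-only regions and, after its values were seen, an intronic Lmx1b region with a peak in 5-HT library 2 alone were added. The members and lists were chosen with earlier results of these data known. No processed files of the RNA-seq samples were available here, so they were not analysed.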

Additional observations from a re-analysis of the deposited data

How the results depend on the processing

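The score has no known scale and read depth is unknown, so a missing peak in the 5-HT libraries, which have fewer peaks, does not show a closed region. The Lmx1a DA-only regions fell from 11 to 2 with the 22879 highest-scoring peaks of each library and to 7 with the upper 50% of peaks, and ranged from 11 to 14 without single libraries. The Lmx1b DA-only regions changed from 3 to 8 with the upper 50% of peaks and to 1 without flanks. They ranged from 3 to 11 without single libraries. At both loci, leaving out a library could only keep or raise the count, since the DA-only rule then has fewer conditions. With 22879 peaks, promoter regions with a peak fell from 1 to 0 for Lmx1a and from 2 to 1 for Lmx1b. The Lmx1a difference per 10000 kept its sign under all 13 alternatives (0.662 to 2.24, both extremes without single libraries). The Lmx1b difference ranged from -0.414 to 0.835 without single libraries, being negative in 3 cases (-0.414, -0.156 and -0.0583), and was positive under the other 10 alternatives (0.0884 to 1.61, the highest with the upper 50% of peaks). The difference of log2 ratios turned to -0.14 with the upper 50% of peaks, stayed positive under 12 alternatives and ranged from 0.34 to 0.85 without single libraries. The cause of these changes was not tested. No test could reach a p under 0.1, and under 0.333 or 0.25 without a DA or a 5-HT library. Merging regions, the overlap rule and leaving out regions of other protein-coding genes changed none of these directions. Libraries of the groups share only a number. Over all regions, deviations of the percentiles from the group mean had a correlation of -0.0101 between the libraries numbered 1 and of -0.0157 between those numbered 2. Deviations of the 2 5-HT libraries mirror each other, so the pairs with unlike numbers had 0.0101 and 0.0157 by construction. These values therefore cannot show whether libraries of the same number belong together. With the number as a replicate block, on 2 pairs and without DA library 3, the differences were 2.24 for Lmx1a, 0.835 for Lmx1b and 0.52 for the log2 ratio. These equal the values without DA library 3, because the mean of the pair differences is the difference of the group means. The block is counted among the 13 alternatives but is not a further check.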
